A study of Mus musculus with 4 samples.

Results

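The 45 genes described here encode the digestive machinery of the lysosome: 11 proteases, 10 other hydrolases, 3 soluble cofactors, 4 membrane proteins, 3 transcription factors that regulate lysosomal genes and 14 subunits of the proton pump. They were chosen by name, and measured values did not enter the rule, although earlier results of these data were known when the choice was made. All 45 were found among the 28074 gene symbols of the table, and all 45 were among the 12612 genes that were tested, those with a mean of at least 1 FPKM (fragments per kilobase of transcript, scaled to the size of the library) over the 4 samples. Their expression was compared between leukaemic spleen cells given R848 and cells given vehicle.

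R848 (resiquimod) is a small molecule known as an activator of TLR7 and TLR8, Toll-like receptors that sense RNA in endosomes. Which of them responded in these mouse cells was not tested. Cells of 2 mice, 4050 and 4182, were each divided between 10 µg/ml R848 (n = 2 samples) and vehicle (control, n = 2 samples) and cultured for 3 days, after 24 hours of recovery from freezing in medium with 20% serum, SCF, IL6 and IL3. The mice carry floxed Dnmt3a, the internal tandem duplication of Flt3 on both alleles and Mx1-Cre, and the series was made to find expression and pathway changes with R848. Every sample therefore shares the mutations, the cytokines and the freezing, and there is no sample of healthy cells.
The labels give Dnmt3a as fl/fl in one place and as +/- in another, and the genotype was not resolved here. The Mx1 promoter that drives Cre is induced by interferon and is not specific to one blood lineage. Red cells were lysed, and the labels name no sorting step, so each sample is bulk RNA of whatever spleen cells were left; in such RNA a change in the number of cells of a type and a change in RNA per cell cannot be told apart. Each pair of values below is for mouse 4050 and then mouse 4182.

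Lysosomal proteases are made as inactive precursors and mature in acid, which the vacuolar proton pump (V-ATPase) supplies: its V1 part burns ATP in the cytosol, and its V0 part carries protons across the membrane. Glycosidases and lipid hydrolases work in the same acid lumen, and several of them need small activator proteins. TFEB, TFE3 and MITF switch many of these genes on together through a promoter element centred on an E-box. In mouse phagocytes and dendritic cells, cathepsins and the asparagine endopeptidase legumain also trim the endosomal Toll-like receptors, the class of receptor that R848 addresses.

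The E-box letters CACGTG were looked up in RefSeq promoter windows on GRCm38.p6, which span 250 bases before to 50 after each gene start. Windows were matched by symbol for 37 of the 45 genes, with 47 windows in all. CACGTG, which reads the same on both strands, was in 14 of the 47 windows (29.8%), against 7.15% of all 32851 windows. The longer palindrome TCACGTGA, which contains it, was in 7 windows (14.9%), against 0.974% of all windows. The 10-letter palindrome, with a G before and a C after these letters, was in 0 of the 47 windows, against 0.326% of all windows. By gene, 14 of the 37 with a window (37.8%) had a CACGTG, against 11.9% of 8807 tested genes with a window. The 8-letter form was in 7 of the 37 (18.9%), against 2.34% of these tested genes, and the 10-letter form in 0, against 0.92%. A match is a string of letters and not a measured binding site. The stretches below belong to the 7 genes whose window holds the 8-letter form and to Lgmn, the gene that changed most; capitals mark the E-box, and each is written 5′ to 3′ on the gene's strand.
Ctsa, chr2:164833749-164833778, plus strand: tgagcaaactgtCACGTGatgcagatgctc
Ctsd, chr7:142387908-142387937, minus strand: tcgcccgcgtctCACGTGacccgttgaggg
Gla, chrX:134601182-134601211, minus strand: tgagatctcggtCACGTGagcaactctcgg
Mcoln1, chr8:3500462-3500491, plus strand: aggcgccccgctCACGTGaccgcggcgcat
Atp6v0d1, chr8:105566050-105566079, minus strand: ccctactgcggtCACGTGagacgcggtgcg
Atp6v0e, chr17:26676387-26676416, plus strand: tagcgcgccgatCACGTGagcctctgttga
Atp6v1a, chr16:44139373-44139402, minus strand: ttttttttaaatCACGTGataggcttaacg
Lgmn, chr12:102439124-102439153, minus strand: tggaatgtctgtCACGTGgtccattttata
The Lgmn stretch lies in the window of a second start of the gene. The window of its outermost start (chr12:102439679-102439978) held none of the letters searched, which also included the core of interferon-responsive elements (GAAA, any 2 bases, GAAA, on either strand) and TTCNNNGAA, the palindromic core of STAT sites. The interferon core was in 3 of the 47 windows (6.38%, against 3.44% of all windows), those of Ctss, Lamp1 and Atp6v1d, and the STAT core in 1 (2.13%, against 8.3%), that of Ctsc.

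These genes were abundant in the leukaemic cells. FPKM is a level per transcript length, so it can be set side by side between genes. The median gene of the 45 stood at the 90.6th percentile of the 12612 tested genes by mean level, and 23 of the 45 stood above the 90th. Mean levels ran from 4.87 FPKM for Ctse, an aspartic protease of endosomes, to 1433 FPKM for Psap, the precursor of the saposins that present sphingolipids to their hydrolases. Together the 45 genes took 0.725% and 0.803% of the summed FPKM with R848, against 0.736% and 0.721% in control. The 2 groups overlap in this share, and the sample with the highest share was that of mouse 4182 with R848.

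**Figure D1:**
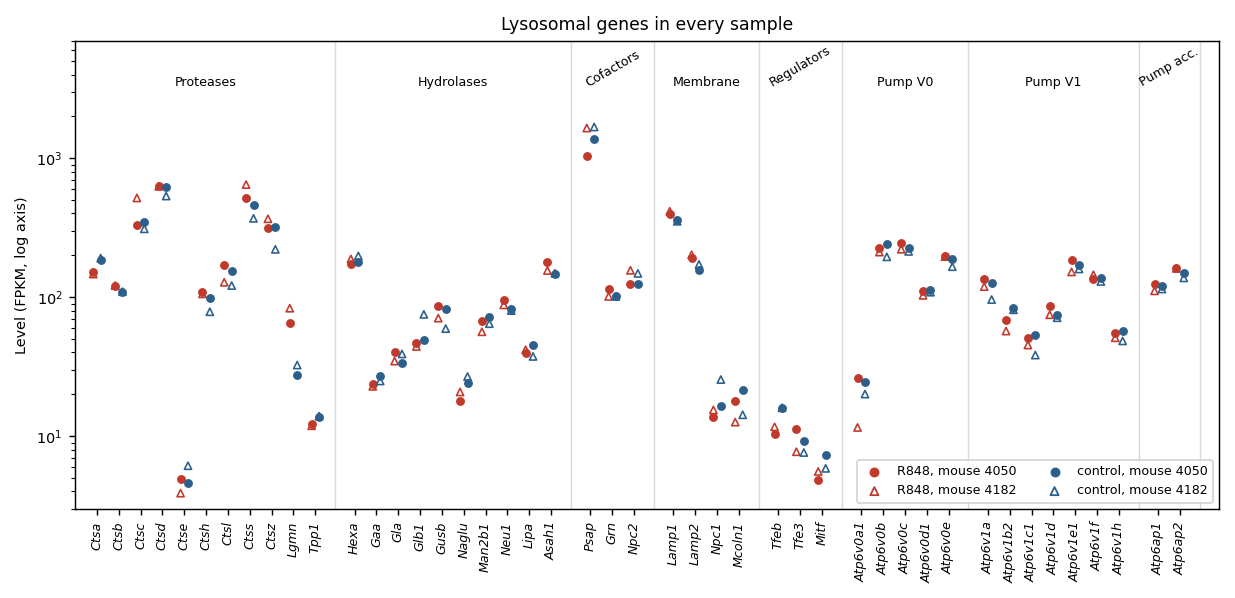
Level of each of the 45 lysosomal genes in each sample (FPKM, log axis), grouped by role; red points are R848 and blue points control, filled circles mouse 4050 and open triangles mouse 4182. For most genes the 4 points lie close together; Lgmn stands out, with 65.1 and 83.3 FPKM with R848 and 27.7 and 32.5 FPKM in control.

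Few of the lysosomal genes passed the test with R848, as was so for the tested genes at large. By limma on log2(FPKM + 1), with p-values adjusted over all 12612 genes, 1 of the 45 rose (Lgmn) and 0 fell. Among all genes tested, 1.47% rose and 0.381% fell (1.85% in either direction). With the mouse as a block the members again gave 1 higher and 0 lower, while 5.3% of all genes were called. At an unadjusted p under 0.05 without the block, 4 of the 45 (8.89%) passed, against 11.5% of all genes: Lgmn and Ctss were higher, and Tfeb and Atp6v1b2 were lower. With the block 7 of the 45 passed, and 1944 of all 12612 genes. Ctsa, Glb1 and Npc1, each lower with R848, joined the members that passed without it.

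The log2 differences of the 45 genes had a median of 0.05, against -0.08 over all genes tested. Their range was -0.51 (Tfeb) to 1.27 (Lgmn). In mouse 4050 the median was 0.03, against 0.00 over all genes, and in mouse 4182 it was 0.07, against -0.16. A share of 62.2% of the members lay above 0, against 37.2% of all genes, and this share moves with the scaling between samples. The difference was under 0.25 in size for 31 members (68.9%), against 63.1% of all genes, so that small differences were about as frequent as in the genes at large.

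The precision can be stated per gene, although the authors' table gives no counts and the read depth behind a value is unknown. For 42 of the 45 genes the 95% interval of the log2 difference lay within -1 and 1, that is, within a 2-fold change either way (93.3%, against 82.5% of all genes). The exceptions were Lgmn, Npc1 (-1.02 to 0.08) and Atp6v0a1 (-1.14 to 0.48). All intervals are from the fit without the block, so differences in level between the animals enter their width. With the block the SE of Npc1 was 0.20, against 0.23 without it. For Atp6v0a1 it was 0.22, against 0.34. The members are abundant and the variance prior follows the mean level, so the share over all genes is not one at equal level. Both R848 samples lay above both controls for 12 members and below both for 9, with overlap for 24; over all genes the shares were 13.5% above and 28.8% below. The gap between the 2 control samples exceeded the difference with R848 for 25 members (55.6%, against 53.5% of all genes). The sign differed between the mice for 14 members (31.1%, against 39.1%).

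**Figure D2:**
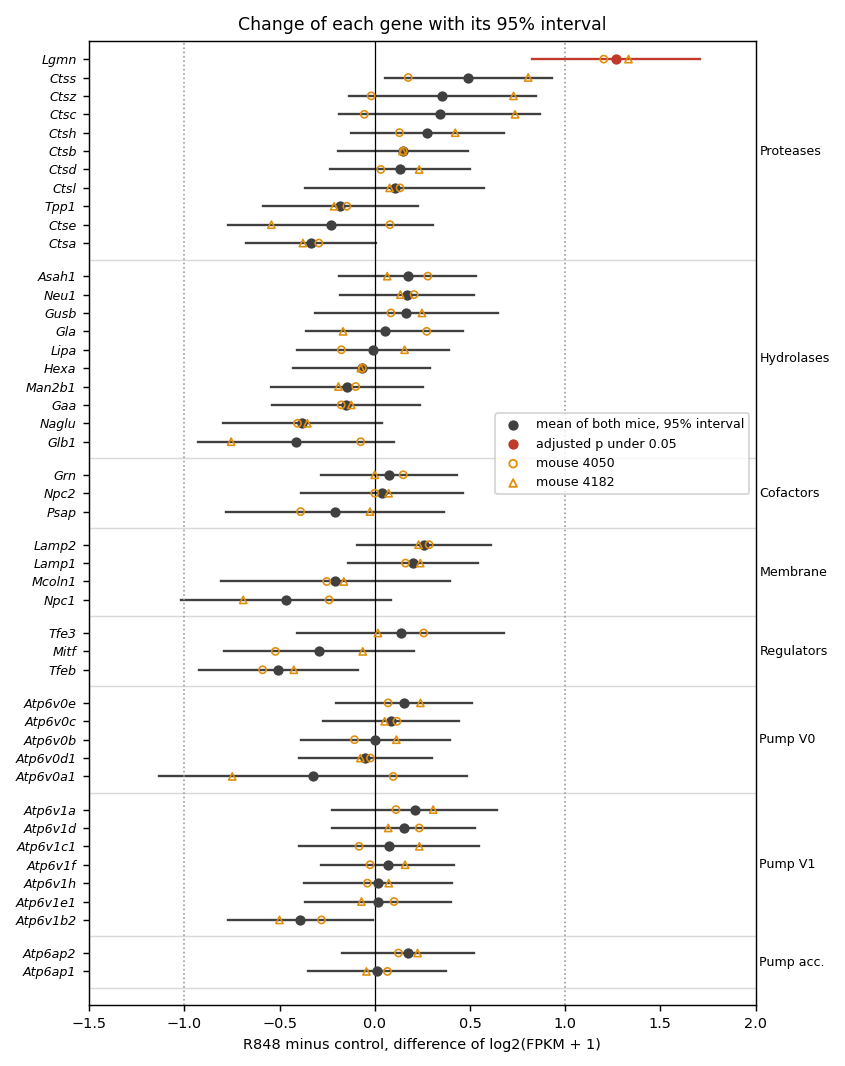
Difference of R848 minus control for each of the 45 genes on the log2(FPKM + 1) scale, by role; dark points are the mean of both mice with the 95% interval from limma, orange circles and triangles are mouse 4050 and mouse 4182, and dotted lines mark a 2-fold change. Lgmn, in red, is the gene with an adjusted p under 0.05, and its whole interval (0.83 to 1.71) lies above the centres of all other genes.

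Among the 11 proteases, 1 rose, 0 fell and 10 did not pass. Their median log2 difference was 0.15, with 0.08 in mouse 4050 and 0.23 in mouse 4182. Both R848 samples lay above both controls for 5 of them (Ctsb, Ctsd, Ctsh, Ctss and Lgmn) and below both for 2 (Ctsa and Tpp1). These are 45.5% and 18.2% of the 11, against 13.5% above and 28.8% below over all genes.

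Legumain is encoded by Lgmn (chromosome 12, 102394082 to 102439728, GRCm38). This endopeptidase cuts after asparagine and matures cathepsins and antigens. Lgmn was at 65.1 and 83.3 FPKM with R848, against 27.7 and 32.5 FPKM in control. Both R848 samples lay well above both controls, and the difference was present in each mouse. The means were 74.2 ± 12.9 FPKM with R848 and 30.1 ± 3.37 FPKM in control (SD, n = 2 each). The log2 difference was 1.27 (SE 0.19; 1.20 in mouse 4050 and 1.33 in mouse 4182), with an adjusted p of 0.0217 by limma and 3.0e-04 with the mouse as a block.

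The size of the Lgmn difference held under every alternative run, between 1.09 and 1.44, and its call did not. Without the block, the adjusted p was 0.086 after quantile normalization, 0.0713 after median log ratio scaling and 0.0632 with the 5 most abundant rows left out of the scaling. It was 0.056 without the R848 sample of mouse 4050 and 0.182 without that of mouse 4182. With the block, it was 0.00431 after quantile normalization and 0.00301 after median log ratio scaling.

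Lgmn is abundant in macrophages, so the macrophage markers are given beside it. All 5 markers were tested, and their summed level was 664 and 529 FPKM with R848, against 433 and 383 FPKM in control. Adgre1, which encodes the macrophage surface protein F4/80, rose: it was at 155.8 and 154.2 FPKM with R848, against 52.6 and 61.5 FPKM in control (log2 difference 1.43, limma adjusted p = 0.00709). Csf1r, the receptor for the macrophage growth factor, passed with the block alone (0.67, limma adjusted p = 0.0215, and 0.241 without it). Itgam (0.37), Mertk (0.14) and Cd68 (-0.35) did not pass. The part of macrophage number in the Lgmn difference was not tested.

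Cathepsin S, a cysteine protease of antigen-presenting cells that trims the invariant chain, had the next largest difference. Ctss was at 518 and 646 FPKM with R848, against 459 and 369 FPKM in control. The groups did not overlap, but the step was small in mouse 4050 (0.18) and larger in mouse 4182 (0.81). Its log2 difference of 0.49 (SE 0.19; 95% interval 0.05 to 0.93) had a limma adjusted p of 0.353 (with the block, 0.158).

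Cathepsin C, which activates the serine proteases of granules, and cathepsin Z, a carboxypeptidase, repeated that split between the animals. Ctsc was at 332 and 517 FPKM with R848, against 345 and 310 FPKM in control; Ctsz was at 316 and 366 FPKM with R848, against 320 and 221 FPKM in control. In mouse 4050 the R848 sample lay slightly below its control for both genes (-0.06 and -0.02), and in mouse 4182 it lay above (0.74 and 0.73). Neither passed, with log2 differences of 0.34 and 0.35 over both mice.

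The most abundant cathepsin was Ctsd, the main aspartic protease of lysosomes, at 633 and 628 FPKM with R848, against 619 and 534 FPKM in control. Its log2 difference was 0.13 (95% interval -0.24 to 0.50). Ctsb, a cysteine protease, was at 120.2 and 121.2 FPKM with R848, against 108.3 and 109.5 FPKM in control, a difference of 0.15 that was nearly equal in both mice. Ctsh, an aminopeptidase, had a difference of 0.28 and Ctsl, another cysteine endopeptidase, 0.11; neither passed.

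Ctsa, a serine carboxypeptidase that also shields beta-galactosidase and neuraminidase from breakdown, was the protease with the largest difference downwards. It was at 151.2 and 146.7 FPKM with R848, against 185.6 and 190.9 FPKM in control. The replicates of each group were close and the groups were apart, and the log2 difference of -0.34 (95% interval -0.68 to 0.01) had a limma adjusted p of 0.446. Tpp1, which takes tripeptides off the ends of proteins, had -0.18, and the low-level Ctse had -0.23 with overlapping groups.

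Of the 10 hydrolases, 0 rose and 0 fell by limma at an adjusted p under 0.05, against 1.85% of all genes. At an unadjusted p under 0.05 without the block there were again 0, against 11.5% of all genes. With the block Glb1 had an unadjusted p of 0.0439 by limma. Counts of 0 among 10 genes do not set the hydrolases apart. The median log2 difference was -0.04 (-0.07 in mouse 4050, -0.10 in mouse 4182), and all 10 of the 95% intervals lay within a 2-fold change. Summed over the 10 genes, the level was 769 and 723 FPKM with R848, against 742 and 754 FPKM in control, so that the groups interleaved.

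The 2 hydrolases furthest from 0 were both lower with R848 in each mouse. Glb1, the beta-galactosidase of gangliosides, was at 46.7 and 44.2 FPKM with R848, against 49.2 and 75.2 FPKM in control. Most of that difference (-0.41) came from the high control of mouse 4182: the change was -0.07 in mouse 4050 and -0.75 in mouse 4182. Naglu, which removes N-acetylglucosamine from heparan sulfate, was at 17.8 and 20.8 FPKM with R848, against 24.0 and 26.9 FPKM in control. The 2 mice gave nearly the same step, and its difference of -0.38 (95% interval -0.80 to 0.04) had a limma adjusted p of 0.486.

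Another pair of hydrolases lay above both controls by a small step. Asah1, the acid ceramidase, was at 178.6 and 155.4 FPKM with R848, against 147.1 and 148.5 FPKM in control (0.17). Neu1, the sialidase that cathepsin A shields, was at 94.8 and 88.0 FPKM with R848, against 82.1 and 80.1 FPKM in control (0.17). Gaa, which degrades glycogen, lay below both controls (-0.15). The groups overlapped for the other 5: Hexa (-0.07), a subunit of beta-hexosaminidase; Gla (0.05), the alpha-galactosidase; Gusb (0.17), the beta-glucuronidase; Man2b1 (-0.15), an alpha-mannosidase; and Lipa (-0.01), the acid lipase.

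None of the 7 cofactors and membrane proteins passed the limma test without the block, adjusted (1.85% of all genes) or unadjusted (11.5%). With the block none passed adjusted, and Npc1 had an unadjusted p of 0.0348 by limma. Their median log2 difference was 0.04. Psap was at 1042 and 1648 FPKM with R848, against 1365 and 1677 FPKM in control. The gap between the animals was larger than the gap between the groups, and its difference was -0.21 (95% interval -0.78 to 0.36). Grn, which encodes progranulin, and Npc2, which hands cholesterol to the membrane, had 0.07 and 0.04 with overlapping groups.

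Lamp1 and Lamp2, the glycoproteins that line the lysosomal membrane, lay above both controls. Lamp1 was at 399 and 415 FPKM with R848, against 357 and 352 FPKM in control, a log2 difference of 0.20. Lamp2 was at 190.7 and 201.8 FPKM with R848, against 156.3 and 171.9 FPKM in control, a difference of 0.26. Both steps were similar in the 2 mice, and both intervals reached 0 (Lamp1 -0.14 to 0.54, Lamp2 -0.10 to 0.61).

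Npc1, which carries cholesterol out of the lysosome, was at 13.8 and 15.4 FPKM with R848, against 16.4 and 25.5 FPKM in control. Its difference of -0.47 (limma adjusted p = 0.524) again rested largely on the high control of mouse 4182. Mcoln1, a calcium channel of the lysosome, had -0.21 with overlapping groups.

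The 3 transcription factors were present at low levels, and none passed. Tfeb was at 10.3 and 11.7 FPKM with R848, against 16.06 and 16.01 FPKM in control. Both R848 samples lay below both controls, by -0.59 in mouse 4050 and -0.43 in mouse 4182. The log2 difference was -0.51 (SE 0.18; 95% interval -0.93 to -0.09), the lowest of the 45 genes, with a limma adjusted p of 0.309 (with the block, 0.206).

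Tfe3 was at 11.2 and 7.72 FPKM with R848, against 9.22 and 7.63 FPKM in control. The groups overlapped, and its difference of 0.14 (limma adjusted p = 0.888) changed sign without the R848 sample of mouse 4050 (-0.11). Mitf was at 4.83 and 5.57 FPKM with R848, against 7.38 and 5.87 FPKM in control. Its 2 R848 samples lay below both controls, narrowly so for mouse 4182, and the difference was -0.29 (limma adjusted p = 0.682).

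Members with and without an E-box in the promoter windows had overlapping ranges. The 14 members with a CACGTG had a median log2 difference of 0.03 (range -0.41 to 1.27), and the 23 members with a window and no CACGTG had 0.07 (range -0.51 to 0.49). Their median control levels were alike, at 110.7 and 117.0 FPKM. Of the 7 genes whose 8-letter form is printed above, Ctsa had -0.34, Mcoln1 -0.21, Atp6v0d1 -0.05, Gla 0.05, Ctsd 0.13, Atp6v0e 0.15 and Atp6v1a 0.21. These medians are a description and carry no test.

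The 14 pump genes among the members stayed close to control. Of these subunits and accessory proteins, 0 rose and 0 fell by limma, against 1.85% of all genes. At an unadjusted p under 0.05 there was 1 (Atp6v1b2), against 11.5% of all genes. The median log2 difference was 0.04, with 0.07 in each mouse, and the range was -0.39 to 0.21. The differences of 12 of the 14 were under 0.25 in size. Summed over the 14 genes, the level was 1807 and 1659 FPKM with R848, against 1763 and 1579 FPKM in control, a step smaller than the gap between the animals.

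In V0, the part that carries the protons, the proteolipid subunits Atp6v0b and Atp6v0c had differences of 0.00 and 0.08. Atp6v0e, a small membrane subunit, had 0.15. Atp6v0d1, which couples V0 to the central stalk, was at 110.5 and 103.0 FPKM with R848, against 112.3 and 108.6 FPKM in control (-0.05). Atp6v0a1, an isoform of the large subunit a, was at 26.3 and 11.6 FPKM with R848, against 24.5 and 20.1 FPKM in control. The animals disagreed in sign for it (0.10 and -0.75), and the 2 R848 samples lay far apart. Atp6v0a1 had the widest interval of the 45 genes.

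In V1, the part that hydrolyses ATP, the catalytic subunit Atp6v1a had 0.21 and its partner Atp6v1b2 had -0.39. Atp6v1b2 was at 68.1 and 57.0 FPKM with R848, against 82.9 and 81.1 FPKM in control. Both R848 samples were lower than both controls, and the limma adjusted p was 0.421, and 0.228 with the block. The stalk and regulatory subunits Atp6v1c1, Atp6v1d, Atp6v1e1, Atp6v1f and Atp6v1h lay between 0.02 and 0.15. The accessory proteins Atp6ap1 and Atp6ap2, which take part in assembling the pump, had 0.01 and 0.17.

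Some pump subunits are made in tissue-specific isoforms, and the isoforms outside the 45 genes were read from the same table. Atp6v0d2 (chromosome 4, 19876838 to 19922566, GRCm38), the alternative to Atp6v0d1 known from osteoclasts and macrophages, fell. It was at 0.0748 and 0.105 FPKM with R848, against 8.84 and 6.30 FPKM in control. The gene passed the filter of a mean of 1 FPKM through the control samples alone, and was not tested under a filter of 5 FPKM. Both R848 samples were close to 0, and the log2 difference was -2.96 (SE 0.25; -3.19 and -2.72 by mouse), with a limma adjusted p of 0.00306 (with the block, 1.3e-05). Since 1 was added to each value, this figure understates the change of a gene at so low a level; with 0.1 added it was -5.32.

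The fall of Atp6v0d2 left the sum of subunit d nearly in place. Atp6v0d2 made up 0.0676% and 0.102% of the summed subunit d level with R848, against 7.3% and 5.48% in control. The sums were 111 and 103 FPKM with R848, against 121 and 115 FPKM in control. Of the 3 osteoclast markers, listed because Atp6v0d2 is known there, Acp5 passed the filter on low values. Acp5 was higher with R848 (35.1 and 21.2 FPKM, against 16.6 and 7.86 FPKM in control), opposite in direction to Atp6v0d2, and passed with the block alone. Ctsk was at 0.359 and 0.329 FPKM with R848, against 2.18 and 0.490 FPKM in control, and Oscar was at 0.290 FPKM or less in every sample.

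For subunit a, the isoform Tcirg1 (a3), used by lysosomes and osteoclasts, dominated. Tcirg1 was at 171.8 and 176.2 FPKM with R848, against 140.2 and 121.3 FPKM in control, and made up 79.6% and 86.6% of the subunit a level with R848, against 78.8% and 79.3% in control. Its log2 difference of 0.41 (95% interval 0.05 to 0.78) did not pass (limma adjusted p = 0.348). Atp6v0a2 had the same difference, 0.41 (limma adjusted p = 0.468), and the kidney isoform Atp6v0a4 was listed at 0 in every sample.

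**Figure D3:**
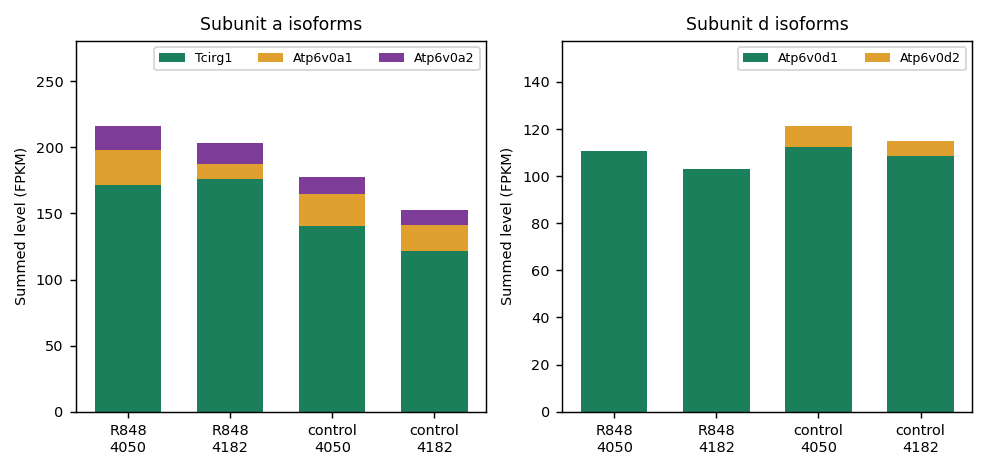
Summed level (FPKM) of the isoforms of pump subunit a (left) and subunit d (right) in each sample, R848 at the left and control at the right of each panel. The orange part of the right panel, Atp6v0d2, is 7.3% and 5.48% of the control bars and too thin to see in the R848 bars.

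Beyond the 45 genes, 8 lists of other lysosomal genes held 127 matched genes, of which 117 were tested. By limma 1 rose (Slc11a1) and 1 fell (Atp6v0d2), and 9 rose and 2 fell once the mouse was a block, where 3.4% of all genes rose and 1.9% fell. The median log2 difference of the 117 was -0.08, equal to that of all genes.

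Slc11a1 (chromosome 1, 74375014 to 74386057, GRCm38) encodes NRAMP1, a metal ion transporter of the phagosome membrane known for resistance to intracellular bacteria. It was at 55.0 and 62.7 FPKM with R848, against 10.4 and 6.20 FPKM in control. The 2 R848 samples lay several times above both controls in means of 58.8 ± 5.49 FPKM with R848 and 8.30 ± 2.96 FPKM in control (SD, n = 2 each). The log2 difference was 2.72 (SE 0.24; 2.30 in mouse 4050 and 3.15 in mouse 4182), with a limma adjusted p of 0.00368 (with the block, 5.2e-06). Without the R848 sample of mouse 4182 the adjusted p was 0.0609.

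Slc15a3, a peptide and histidine transporter of endolysosomes, was the other membrane protein that passed with the block. It was at 22.8 and 28.5 FPKM with R848, against 12.1 and 7.48 FPKM in control. The groups did not overlap, and the log2 difference was 1.33 (SE 0.25), with a limma adjusted p of 0.0514 (with the block, 0.00347). The list of other membrane proteins and transporters, with 22 tested genes, had a median of -0.09.

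Of 25 other hydrolases tested, 0 were called by limma without the block (5 at an unadjusted p under 0.05), and with it Acp5 rose and Naaa fell. Acp5, the tartrate-resistant acid phosphatase, was at 35.1 and 21.2 FPKM with R848, against 16.6 and 7.86 FPKM in control (log2 difference 1.18, limma adjusted p = 0.23, and 0.00189 with the block). Naaa, which hydrolyses the fatty acid amide palmitoylethanolamide, was at 36.6 and 53.5 FPKM with R848, against 72.3 and 140.5 FPKM in control (-1.17, limma adjusted p = 0.177, and 7.1e-04 with the block). For both genes the animals differed in level and shared the direction. Without the control sample of mouse 4182 the differences were 0.68 for Acp5 and -0.70 for Naaa, and neither passed without the block. Without the control sample of mouse 4050 both passed with no block (limma adjusted p = 0.0085 and 0.00377).

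Among 9 tested genes listed as protease inhibitors, 7 were higher in value with R848, and Cst3 and Cst7 were lower. By limma without the block, 0 of 9 tested inhibitors were called, although 7 of the 9 were higher at an unadjusted p under 0.05, against 5.2% of all genes. With the block 6 rose and 0 fell, where 3.4% of all genes rose; 4 of the 6 are stefin A genes that can share reads and are not separate calls. The median log2 difference of the 9 was 1.16, against -0.08 over all genes and 0.15 for the 11 proteases. This median is the value of Serpinb6b, and the 4 stefin A genes enter it separately. The calls were Cstb, 4 stefin A genes and Serpinb6b, and the secreted or lysosomal cystatins Cst3 (-0.09) and Cst7 (-0.19) did not pass.

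Cstb, the cytosolic stefin B that blocks cathepsins escaping from lysosomes, was at 527 and 674 FPKM with R848, against 330 and 384 FPKM in control. Both R848 samples were above both controls, with a log2 difference of 0.74 (limma adjusted p = 0.123, and 0.00989 with the block). Serpinb6b, a serpin grouped with the inhibitors, was at 6.85 and 9.02 FPKM with R848, against 3.88 and 2.22 FPKM in control (1.16, limma adjusted p = 0.104, and 0.0207 with the block). That call was lost with the block and quantile normalization (0.0673) and with the block and median log ratio scaling (0.052).

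The stefin A genes Stfa1, Stfa2, Stfa2l1 and Stfa3 are near-identical neighbours in the mouse, and reads can be split among them, so their sum is the safer quantity. The sum was 3310 and 740 FPKM with R848, against 618 and 253 FPKM in control. Mouse 4050 had several times the level of mouse 4182 with R848, and its control was close to the R848 sample of mouse 4182. Single genes had log2 differences of 1.73 to 2.36, with limma adjusted p from 0.264 to 0.313 without the block and from 1.4e-06 to 1.6e-04 with it. Without the R848 sample of mouse 4050 the differences were 0.79 to 1.23, and without that of mouse 4182 they were 2.66 to 3.48. Without the control sample of mouse 4050 all 4 genes passed with no block (limma adjusted p from 0.00663 to 0.0331), and without that of mouse 4182 none did. Neutrophils and their precursors are rich in stefin A; the summed level of the 5 neutrophil markers was 85106 and 46628 FPKM with R848, against 75230 and 58212 FPKM in control, with 0 of 5 called, and its part in the stefin values was not tested.

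**Figure D4:**
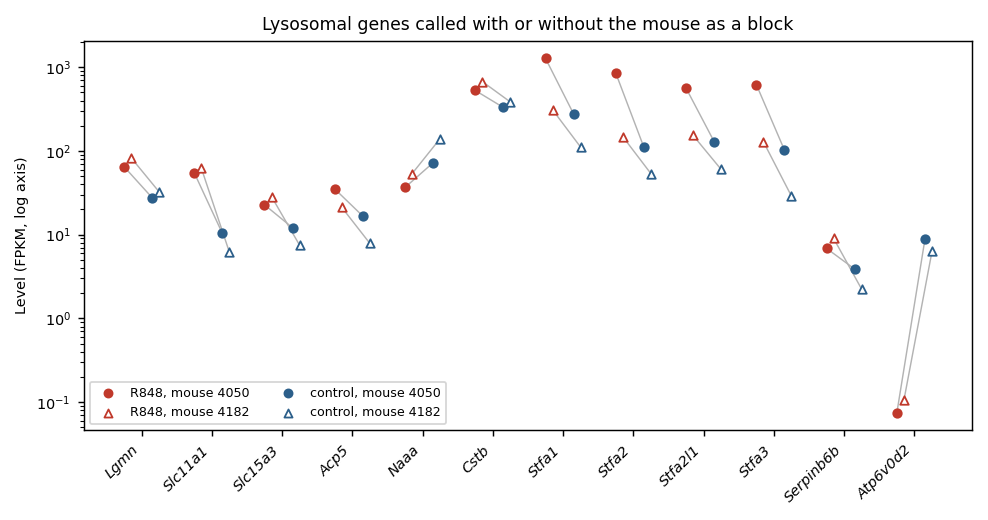
Level (FPKM, log axis) in every sample of the 12 lysosomal genes and inhibitors that passed with or without the mouse as a block, with a line joining the R848 sample (red, left) to the control sample (blue, right) of the same mouse. Naaa and Atp6v0d2 lie higher in control, and the other 10 lie higher with R848; in the 4 Stfa genes the 2 mice lie far apart within each group.

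Genes that deliver cargo to the lysosome or sense nutrients on its surface gave no call, with or without the block. Over all genes 1.85% were called, 5.3% with the block. Without the block, the fit behind the unadjusted counts of these lists, 11.5% had an unadjusted p under 0.05. Counts of 0 or 1 in lists this short are therefore weak evidence of stability. Of 17 delivery genes tested, the smallest p belonged to Vps39, a subunit of the tether that docks late endosomes, at -0.42 (limma adjusted p = 0.476), and 0 had an unadjusted p under 0.05. With the block this count was not 0, Vps39 being below the threshold (limma unadjusted p = 0.0324). Of 16 genes of the mTORC1 kinase and its lysosomal sensors, 0 were called and 1 had an unadjusted p under 0.05. This was Rptor, the mTORC1 scaffold, at 6.07 and 4.88 FPKM with R848, against 8.82 and 8.97 FPKM in control (-0.62, limma adjusted p = 0.261).
Of 15 autophagy genes, 0 were called and 0 had an unadjusted p under 0.05, with the smallest p for Map1lc3b, a coat protein of autophagosomes, at -0.56 (limma adjusted p = 0.447). Of 8 other proteases and nucleases, 0 were called and 0 had an unadjusted p under 0.05. The smallest p was that of the serine carboxypeptidase Scpep1 at 0.57 (limma adjusted p = 0.488). With the block its unadjusted p by limma was 0.0065 and its adjusted p 0.0943. The medians of these 4 lists were -0.07, -0.11, -0.19 and 0.13, in the order given, against -0.08 over all genes.

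**Figure D5:**
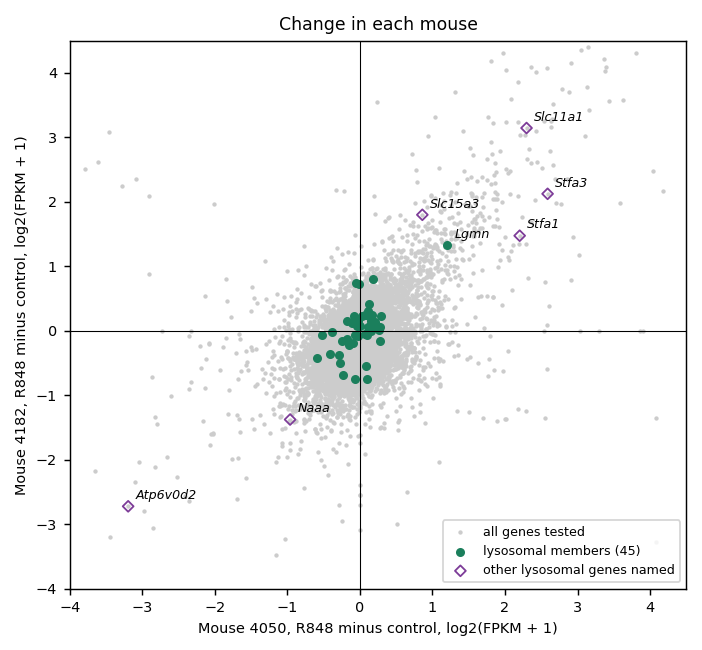
Difference of R848 minus control on the log2(FPKM + 1) scale in mouse 4182 (vertical axis) against mouse 4050 (horizontal axis), for all tested genes (grey), the 45 lysosomal genes (green) and other named lysosomal genes (purple diamonds); the axes are cut at -4 and 4.5, and 34 genes lie outside them. The green points cluster at the origin except for Lgmn, and Slc11a1 and Atp6v0d2 lie far out in the same direction in both mice.

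The labelled myeloid leukaemia was checked against its markers. S100a8, which encodes a calcium-binding protein abundant in neutrophils, was at 45355 and 25657 FPKM with R848, against 37968 and 29455 FPKM in control. Natural killer cell markers were under 1 FPKM and red cell markers at 1.23 FPKM or less in every sample. Markers of 3 lymphoid types rose by limma without the block. They included Ms4a1 of B cells (7.45 and 5.05 FPKM with R848, against 0.313 and 0.181 FPKM in control) and Cd79a of the same cells (4.73 and 3.69 FPKM with R848, against 0.668 and 0.382 FPKM in control). Both genes were under 1 FPKM in each control and passed the filter on low values through the R848 samples alone. Igkc, Igj and Mzb1 of plasma cells (3 of 5) and Cd3g of T cells (1 of 2) rose too. Summed over all 5 plasma cell markers, called or not, the level was 1284 and 1127 FPKM with R848, against 535 and 686 FPKM in control. The log2 differences of these 5 ran from -0.04 to 6.88, with a median of 4.05. The dendritic cell marker Itgax fell with the block alone (-2.08, limma adjusted p = 0.00132, and 0.192 without it); the summed dendritic marker level was 3.85 and 2.54 FPKM with R848, against 19.2 and 7.30 FPKM in control. Of the mast cell, basophil and eosinophil markers, Fcer1a (1.301, limma adjusted p = 0.00490) and Prg2 (1.07, limma adjusted p = 7.1e-04) rose with the block and 0 did without it. The part of these cells in the lysosomal values was not tested.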

How the data were processed

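RNA sequencing covered 4 samples, R848 and control from each of 2 mice. Per the labels' protocols, RNA with an integrity number above 8.0 was read as pairs of 150 nucleotides, and both ribosomal RNA depletion and a stranded mRNA kit are named (which of them selected the RNA was not resolved). The submitters' processing notes name kallisto and mm10; their versions and the annotation are not given in the sources used here. Values were deposited by the authors as log2 values that the file name calls FPKM, on a log2(value + 1) scale with a lowest value of 0; linear sums were 950530 to 962001 per sample, as TPM would give. No counts were given, so depth is unknown and no count model was used.

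Of 28192 rows, 27 with names turned into dates and 91 repeats of 90 symbols were left out. The two-sided test was limma 3.58.1 (R 4.3.3), run on log2(FPKM + 1) for genes averaging 1 FPKM or more, the variance prior following the mean level, with Benjamini-Hochberg adjustment over 12612 genes and a threshold of 0.05. Intervals are from the fit without the block and used 7.27 degrees of freedom. The fit was tested on simulated data. Per the labels a mouse number stands for 1 animal divided between R848 and control, which makes the design paired; the samples' deviations from the group means correlated at 0.289 across genes. The fit without the mouse is the main one, and the block is given beside it where a call at an adjusted p under 0.05 differs. Unadjusted p-values are from the fit without the block unless stated. Without the block, the residual spread is that between the 2 animals of each group (2 degrees of freedom). With the block, it is the disagreement of the R848 difference between the mice (1 degree of freedom). Both are pooled with a prior over all genes, worth 5.27 degrees of freedom without the block and 11.3 with it. The p-values therefore rest more on that prior than on the spread of the gene itself.

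Alternatives were a pseudocount of 0.1, no filter, a filter of 5 FPKM, median log ratio scaling, quantile normalization, the block alone and with either rescaling, no variance trend, and leaving out each sample; leaving the 5 most abundant rows out of the scaling was chosen after seeing the data. Adgre1 was matched as Emr1 and Pgcp as Cpq; Rnaset2a, Rnaset2b and Hbb-bt were not matched. The members and lists were chosen with earlier results of these data known. The text names every member, all members called with or without the block, the 3 regulators, and from each other list up to 3 called genes in each direction or else the smallest p; Tcirg1, Atp6v0a2, Atp6v0a4, Cst3, Cst7, the genes called with the block alone and the further markers were named after their values were seen. A marker taken by this rule is not reported here. Gene coordinates and promoter letters are from RefSeq on GRCm38.p6. Figures were drawn with matplotlib 3.10.9.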

Additional observations from a re-analysis of the deposited data

How the results depend on the processing

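With 2 samples a group and unknown depth, small differences are out of reach. The count of genes called depended on the setting: 185 higher and 48 lower became 1 and 22 with no filter, 76 and 12 after quantile normalization, 91 and 15 after median log ratio scaling, 89 and 15 with the 5 most abundant rows left out, 429 and 240 with the mouse as a replicate block, 354 and 136 with the block and quantile normalization, and 404 and 145 with the block and median log ratio scaling. Without each sample in turn the counts ran from 46 to 292 higher and from 11 to 159 lower. Without R848 replicate 4050 they were 105 and 18, without R848 replicate 4182 46 and 11, without control replicate 4050 292 and 159, and without control replicate 4182 244 and 81. With no trend in the prior they were 154 and 33.

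Of the 45 members 0 were called lower in any alternative, and 1 was called higher (Lgmn) or 0: 0 with no filter (Lgmn adjusted p = 0.459), under the 3 rescalings without the block, and without either R848 sample; the range without one sample was 0 to 1. With the block alone or with a rescaling it was 1. Slc11a1 lost its call with no filter (limma adjusted p = 0.429) and Atp6v0d2 did too (0.354); both were called under the 3 rescalings. Slc15a3 entered the threshold at 5 FPKM (0.0273) and without control replicate 4050 (0.00414); without that sample Acp5, Naaa, Serpinb6b (0.0156) and the 4 Stfa genes entered it too, and Cstb (0.154) did not. The cause was not tested.

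The median of the 45 members was 0.0284 after quantile normalization, 0.1272 after median log ratio scaling and 0.1085 without the 5 rows, and -0.0196 to 0.1376 without one sample. The V-ATPase median was 0.0254, 0.1164 and 0.0982 under those 3 rescalings, and -0.0272 to 0.1529 without one sample. For hydrolases it was 0.0348 after median log ratio scaling and 0.0165 without the 5 rows, against -0.04, and -0.0873 to -0.0315 without one sample. For cofactors and membrane proteins it was 0.0007, 0.1104 and 0.0925 under the 3 rescalings, 0.0363 with a pseudocount of 0.1, and 0.0296 to 0.1229 without one sample. For proteases it was 0.0871 to 0.2775 without one sample. The replicate block left each median as it was under the same scaling. The sign of the hydrolase median thus depends on the scaling. Tfe3 was -0.106 without R848 replicate 4050 and 0.3793 without R848 replicate 4182.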
